A study of Mus musculus with 4 samples.

Results

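Betaine-homocysteine methyltransferase (Bhmt), which passes a methyl group from betaine to homocysteine to make methionine, gave the widest difference among 10 genes of methionine and betaine metabolism in the kidneys of mice with experimental membranous nephropathy (MN). Its signal was 2.45-fold lower in MN than in control. By the brightest probe of each, the other 9 genes differed from control by at most 0.19 on the log2 scale. The widest difference in any of their probes was -0.43, in a second Mat2a probe. The 10 genes were selected on the difference between MN and control in these same arrays, so their differences are a description and carry no test. They are Bhmt, Bhmt2, Mat2a, Cbs, Cth, Dmgdh, Sardh, Gnmt, Shmt1 and Chdh, found by the gene name that the files give to a probe, and they held 18 of the 55681 non-control probes of the array and 10 of the 25296 genes tested.

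The study compared whole kidneys of female BALB/C mice, aged 6 weeks at the start per the labels, on 1-colour Agilent arrays. All mice, controls included, were first immunized with 0.2 mg of cationic bovine serum albumin (cBSA) in complete Freund's adjuvant. Starting 2 weeks later, the MN group was given 13 mg/kg of cBSA by vein 3 times a week for 6 weeks, and the control group was given vehicle, which is saline in one label and PBS in another. There were 2 control and 2 MN samples, 1 array each, and slide 1 held replicate 1 of both groups while slide 2 held replicate 2. No label says that the samples came from separate animals, so any spread given here is that between samples and may be technical.

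The pathway is a set of linked methyl transfers. Methionine adenosyltransferases turn methionine into S-adenosylmethionine, methyltransferases such as Gnmt spend its methyl group, and the homocysteine left behind is either methylated again, with folate or betaine as the donor, or passed by transsulfuration into cysteine. Betaine comes from the oxidation of choline, and after Bhmt has used one of its methyl groups the remainder is stripped in mitochondria by Dmgdh and Sardh down to glycine. Liver and kidney are the organs best known for this chain, and in the kidney betaine also serves as an osmolyte.

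Levels are given as the processed signal divided by the 75th percentile of the non-control spots of the same array, called the scaled signal. Differences are MN minus control on the log2 scale, with a standard error (SE) from a limma fit over all genes with n = 2 per group. This fit does not pair the arrays of a slide, so the SE includes any shift between slides. Differences are read between arrays within 1 probe; signals of different probes were set against each other only to choose the probe that stands for a gene, and added only in the sums of marker lists. Between 63.1% and 79.5% of the non-control spots of an array were well above background and 0 were saturated. All 18 member probes were well above background on every array, so no member was lost to the filter. Precision is limited by there being 4 arrays.

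Bhmt was measured by 4 probes, and 2 of their sequences are shown to place the difference along the transcript. The first is a coding probe that starts at base 1426 of NM_016668: read from its first base it holds no stop triplet before its last triplet, the stop codon TAG, in capitals. The second is a stretch of 30 bases from the probe that starts at base 2001, the farthest along that transcript among the Bhmt probes assigned to it. This probe is called the one near the transcript's end for that reason. Capitals mark AATAAA, the letters of a polyadenylation signal, and its use was not tested. Both are printed as the array design gives them, 5′ to 3′.
Bhmt coding probe: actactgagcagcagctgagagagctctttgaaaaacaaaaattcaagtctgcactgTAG
Bhmt probe near the transcript's end, stretch: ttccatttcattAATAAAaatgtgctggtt

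The probe with the highest mean stands for Bhmt; it starts at base 1876 of NM_016668, and the file lists it on mm9 at chr13:94386981-94387040 on the minus strand. Its scaled signal was 11.1 and 11.5 in control replicates 1 and 2, and 4.68 and 4.50 in MN replicates 1 and 2. Both MN arrays were below both control arrays, and the arrays of each group were 0.05 apart on the log2 scale. The difference was -1.30 ± 0.14 (SE, n = 2 per group), with log2 means of 3.49 ± 0.04 (SD) in control and 2.20 ± 0.04 in MN. Within slide 1 it was -1.24 and within slide 2 it was -1.35.

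The probe near the transcript's end (mm9 chr13:94386856-94386915) gave 10.9 and 9.33 in control and 4.95 and 4.42 in MN, a difference of -1.11. The coding probe gave 1.38 and 1.92 in control and 0.440 and 0.832 in MN, a difference of -1.43. It varied more within a group than the other Bhmt probes did, by 0.92 on the log2 scale between the MN arrays, and its listed mm9 span covers 5 of its 60 bases, so no position is given for it. In these 3 probes of NM_016668 both MN arrays were below both control arrays. The fourth probe is assigned to another transcript under the Bhmt name, ENSMUST00000124193, at mm9 chr13:94395097-94395156. It gave 0.214 and 0.181 in control and 0.200 and 0.171 in MN, a difference of -0.09, and its groups overlapped.

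The longest run of letters that any 2 of the 4 Bhmt probes and the Bhmt2 probe had in common was 9 bases, of the 60 in each probe.

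**Figure D1:**
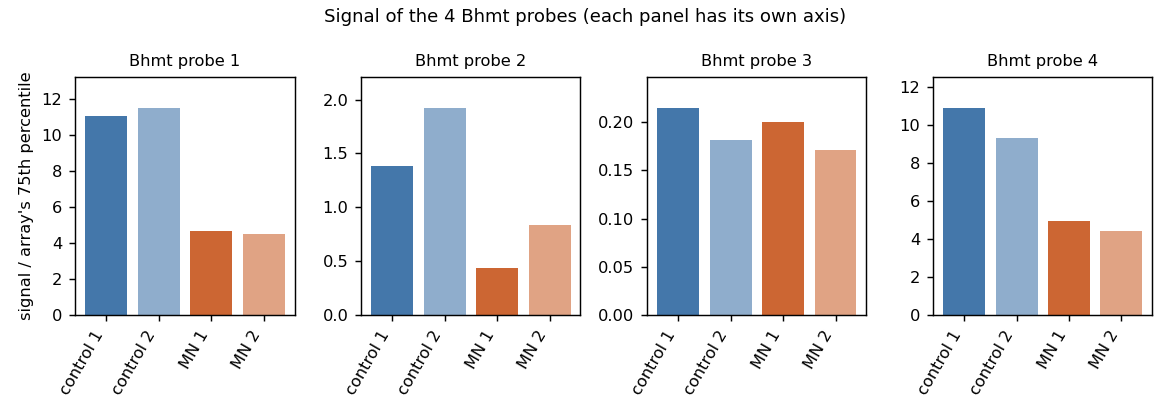
Scaled signal (vertical axis, in units of the array's 75th percentile, from 0) of each of the 4 Bhmt probes on the 4 arrays, 1 bar per array, with a separate axis for each probe; probe 1 stands for the gene, probe 2 is the coding probe, probe 3 is that of ENSMUST00000124193 and probe 4 is the one near the transcript's end. In probes 1, 2 and 4 both MN bars are below both control bars, and in probe 3 they overlap.

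Across all genes, limma called 5 genes higher in MN and 0 lower at an adjusted p under 0.05 (Benjamini-Hochberg), which is 0.0198% of those tested. At an unadjusted p under 0.05 it called 1767 genes, or 6.99%, of which 888 were lower in MN (3.51% of all genes). With the slide as a block 0 genes passed the adjusted threshold, with 1571 higher and 2300 lower at the unadjusted one, and 0 passed with any 1 array left out. Among the members 0 of 10 passed the adjusted threshold and 1, Bhmt, was under the unadjusted one. Nothing is read from either count, because the members were taken from this contrast.

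A difference below that of Bhmt was found in 175 genes, of which 7 were well above background on every array. The members other than Bhmt had a median difference of -0.10, and the median of all genes tested was -0.06. The mean was lower in MN for all 10 members, and for 61.9% of all genes. Both MN arrays were below both control arrays for 5 members (Bhmt, Mat2a, Cbs, Cth and Dmgdh), which is also the pattern of 20% of all genes tested.

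**Figure D2:**
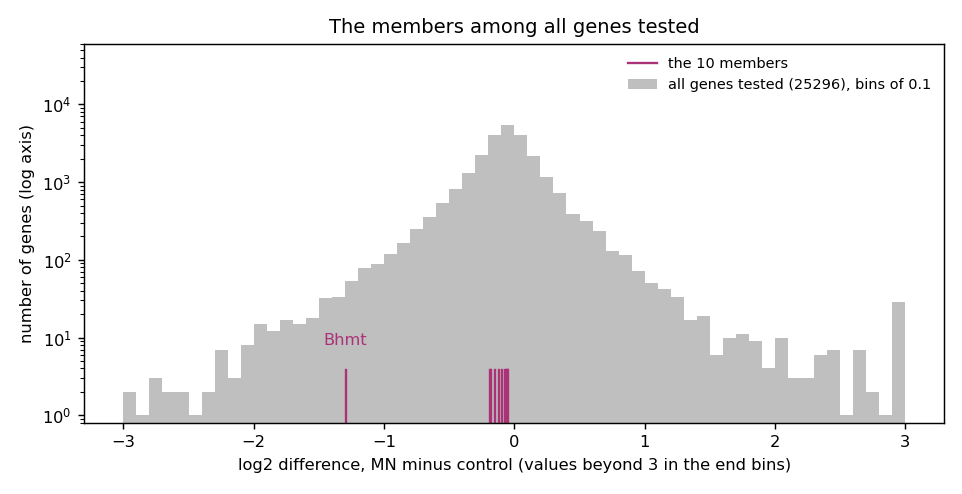
Number of genes (vertical axis, log scale) by log2 difference, MN minus control (horizontal axis, bins of 0.1), for the 25296 genes tested, in grey, with the differences of the 10 members as vertical ticks. Bhmt stands at -1.30 and the other 9 members lie between -0.19 and -0.05, close to the median of all genes at -0.06.

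Bhmt2 is the close relative of Bhmt that methylates homocysteine from S-methylmethionine. It has 1 probe (mm9 chr13:94426379-94426438, minus strand), with a scaled signal of 18.1 and 19.3 in control and 18.2 and 17.5 in MN. The groups overlapped, and the difference was -0.07 ± 0.14.

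Mat2a makes S-adenosylmethionine in most tissues outside the liver. The probe that stands for it (mm9 chr6:72382856-72382915) gave 62.2 and 56.6 in control and 54.2 and 50.2 in MN, a difference of -0.19 ± 0.15, which was the next widest after Bhmt. Its second probe, which lies nearer the start of the transcript, differed by -0.43. The control arrays of that probe were 0.57 apart on the log2 scale and its groups overlapped. Within slide 1 its difference was -0.49, and within slide 2 it was -0.36. Gnmt, the glycine N-methyltransferase that consumes S-adenosylmethionine, gave 5.07 and 4.06 in control and 4.46 and 4.04 in MN (-0.10 ± 0.18). The control arrays of Gnmt were 0.32 apart, a wider gap than that between the groups.

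Cbs and Cth catalyse the consecutive steps of transsulfuration, which condenses homocysteine with serine and then releases cysteine. Cbs gave 37.4 and 37.1 in control and 34.6 and 34.0 in MN, so the MN arrays were lower in a narrow range and the difference was -0.12 ± 0.13. Cth gave 22.5 and 23.8 in control and 19.0 and 22.0 in MN, a difference of -0.18 ± 0.16. A second Cth probe gave -0.17, also with both MN arrays below both control arrays.

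Chdh, the mitochondrial choline dehydrogenase, starts the choline to betaine chain. It gave 3.45 and 4.52 in control and 3.92 and 3.68 in MN, with overlapping groups and a difference of -0.06 ± 0.19. Its 3 probes did not share a direction: the other two gave 0.14 and -0.23. On slide 1 the main Chdh probe was higher in MN by 0.18, and on slide 2 the difference was -0.30.

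Dmgdh and Sardh are the mitochondrial flavoproteins that demethylate dimethylglycine and sarcosine. Dmgdh (mm9 chr13:94522517-94522576, plus strand) gave 14.5 and 13.5 in control and 12.9 and 12.4 in MN, a difference of -0.15 ± 0.14, with the groups apart. Sardh gave 20.9 and 19.5 in control and 18.7 and 20.5 in MN, with overlapping groups and a difference of -0.05 ± 0.15.

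Shmt1, the cytosolic serine hydroxymethyltransferase that feeds one-carbon units from serine into folate, gave 1.33 and 1.60 in control and 1.28 and 1.53 in MN. The slides differed more than the groups did: the control arrays were 0.27 apart and the MN arrays 0.26 apart, against a group difference of -0.05 ± 0.19. Within slide 1 the difference was -0.05, and within slide 2 it was -0.06. The second Shmt1 probe gave 0.273 and 0.290 in control and 0.238 and 0.243 in MN (-0.23), with the groups apart.

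Among the 14 probes of members other than Bhmt, 13 had a lower mean in MN. Counted within slides, 8 of the 10 members were lower in MN on slide 1 and 9 on slide 2. For comparison, a lower mean in MN was found for 61.9% of all genes tested, whose median was -0.06. Sardh, Shmt1 and Chdh lay close to that median, at -0.05, -0.05 and -0.06. No share over all genes was taken by probe or within slides, so nothing is read from these counts. The mean of all 10 members was lower in MN after normexp background correction, quantile or median scaling, and in the deposited value table. With 1 array left out, up to 2 members had a higher mean in MN.

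**Figure D3:**
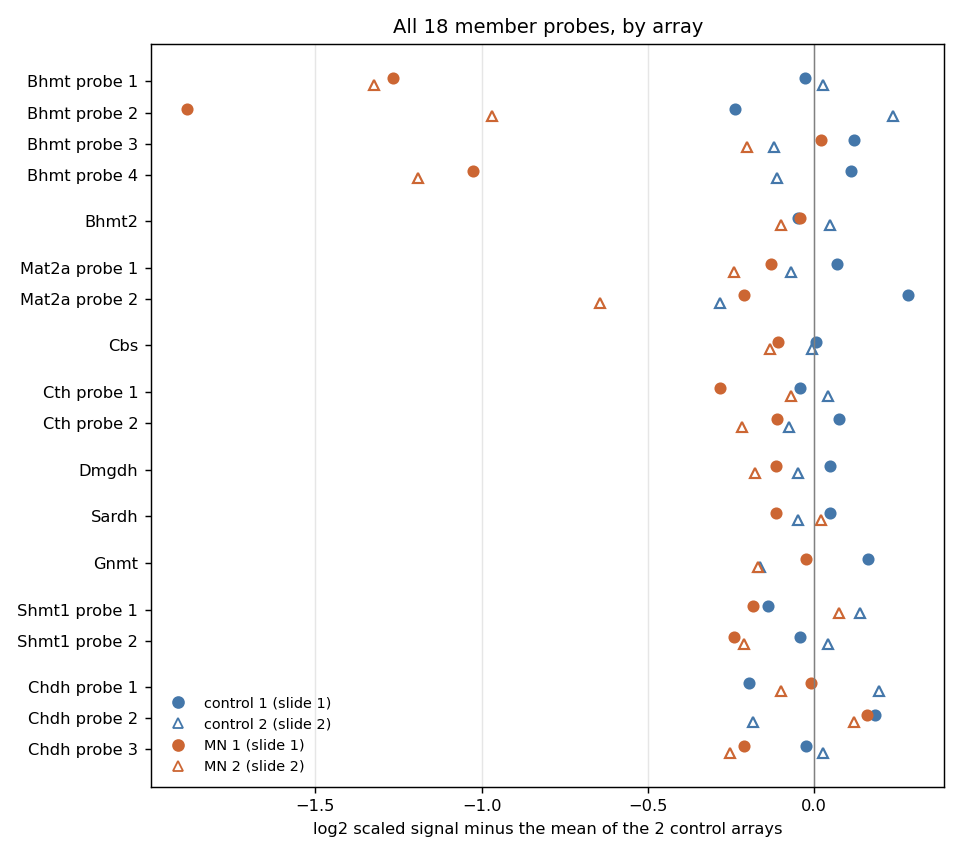
Log2 scaled signal of every member probe on every array, minus the mean of the 2 control arrays of that probe (horizontal axis, log2 units); control arrays are blue, MN arrays orange, slide 1 filled circles and slide 2 open triangles. Bhmt probes 1, 2 and 4 have their MN arrays well to the left of the control arrays, with differences of -1.30, -1.43 and -1.11, and the remaining probes lie closer to 0, the farthest being the second Mat2a probe at -0.43.

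Bhmt, Bhmt2 and Dmgdh lie next to each other on chromosome 13 in the RefSeq gene table. On GRCm38.p6 the start of Bhmt2 lies 36544 bases from that of Bhmt, and Bhmt2 and Dmgdh start 134 bases apart in opposite directions. RefSeq promoter windows of 300 bases (250 before the start and 50 after it) were matched for 9 of the 10 members. The 250 bases before the Bhmt start and the stretch between the Bhmt2 and Dmgdh starts are shown because these neighbours share a place on the chromosome but not the difference of Bhmt. In the Bhmt sequence (GRCm38.p6 chr13:93637759-93638008, minus strand) capitals mark each match to the motifs searched. In the other (GRCm38.p6 chr13:93674272-93674466, plus strand) capitals mark the bases from one start to the other.
Bhmt, 250 bases before the start: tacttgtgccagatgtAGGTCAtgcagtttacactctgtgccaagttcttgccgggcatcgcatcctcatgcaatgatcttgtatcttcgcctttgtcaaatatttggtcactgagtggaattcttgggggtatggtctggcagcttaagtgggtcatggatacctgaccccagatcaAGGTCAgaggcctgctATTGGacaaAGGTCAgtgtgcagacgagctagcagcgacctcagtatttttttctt
Bhmt2 and Dmgdh, start to start: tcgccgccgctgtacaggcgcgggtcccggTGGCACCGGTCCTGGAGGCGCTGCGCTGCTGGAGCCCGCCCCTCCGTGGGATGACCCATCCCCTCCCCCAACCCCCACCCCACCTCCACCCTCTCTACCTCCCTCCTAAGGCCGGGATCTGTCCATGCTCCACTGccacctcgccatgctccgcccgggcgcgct

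Motifs were searched on both strands as exact letters: the TATA box (TATAAA), the CCAAT box (CCAAT), the GC box (GGGCGG), the E-box (CACGTG), an HNF1 motif (GTTAAT) and the nuclear receptor motif (AGGTCA). The 250 bases of Bhmt held 3 nuclear receptor motifs and 1 CCAAT box on the opposite strand, and no 2 of them overlapped. The whole Bhmt window of 300 bases held the same matches and a further CCAAT box, 33 bases after the start. Among the 32851 RefSeq windows of 300 bases, at least 1 nuclear receptor motif was found in 16.3% and at least 1 CCAAT box in 37.4%. The share of windows with as many as Bhmt was not counted. Of the 11 member windows, 3 held a nuclear receptor motif, those of Bhmt, Sardh and Gnmt, and 5 held a CCAAT box. The Bhmt window held 8 CpG and the Bhmt2 and Dmgdh windows 26 and 25, against a median of 7 over all windows. The Bhmt2 and Dmgdh windows have 233 bases in common, so their counts largely repeat each other. In the windows of the other members, CpG ran from 4 (Sardh, and Chdh in part) to 34 (Mat2a). These matches are a description of the letters and say nothing of what binds there.

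The 5 measured genes on either side of this cluster give the level of change in the neighbourhood. Of these 10 genes, 8 had a lower and 2 a higher mean in MN, with a median of -0.10. Over all genes tested, 61.9% had a lower mean in MN and the median was -0.06. Among the 10 neighbours, 0 passed the limma threshold at an adjusted or an unadjusted p under 0.05. The 9 that rose above background on every array ranged from -0.20 (Scamp1, a secretory carrier membrane protein) to 0.16 (Arsb, the lysosomal arylsulfatase B). Gm6109, the measured gene next to Bhmt, gave 58.6 and 80.8 in control and 54.8 and 65.7 in MN, a difference of -0.20 ± 0.23 with overlapping groups. Gm4814 differed by -0.81 ± 0.41 but was well above background on 2 of the 4 arrays.

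**Figure D4:**
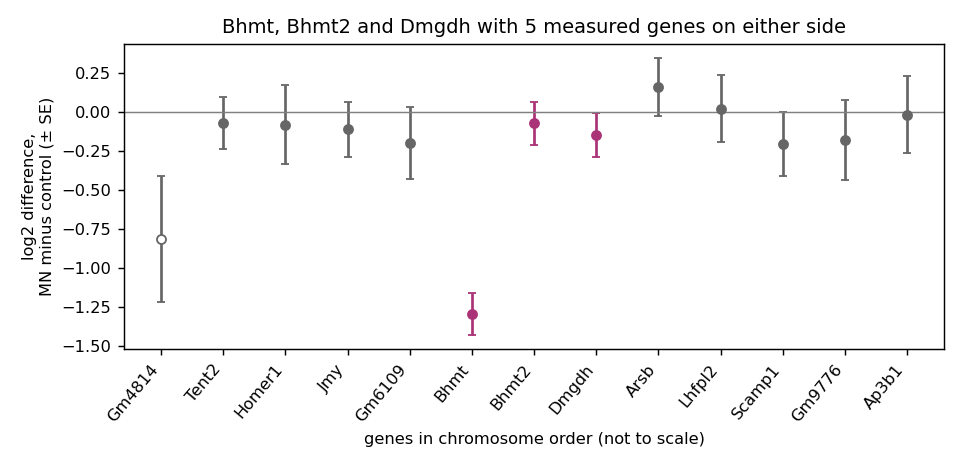
Log2 difference, MN minus control (vertical axis; points are estimates from 2 arrays per group and bars are ± SE from the limma fit), for Bhmt, Bhmt2 and Dmgdh in purple and the 5 measured genes on either side in grey, in chromosome order and not to scale; an open point was well above background on fewer than 4 arrays. Bhmt is at -1.30, and the filled points of the other genes lie between -0.20 and 0.16.

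The genes nearest to Bhmt over the 4 arrays, by the root mean square difference of log2 values centred on each gene's mean, were Gm10405 (0.060), Cited1 (0.064), TC1629332 (0.073), 9530083O12Rik (0.073) and Xlr3b (0.080). Cited1, a transcriptional coregulator known from kidney development, gave 7.19 and 6.73 in control and 3.01 and 2.96 in MN, a difference of -1.22 ± 0.14. Gm10405 gave 40.3 and 41.9 in control and 17.8 and 18.2 in MN. TC1629332 was well above background on 2 arrays. The measure picks genes whose values move as those of Bhmt do, so their differences follow from the choice and nothing is read from them. For the same reason the other members, whose differences were far smaller, could not be among the nearest genes.

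The rest of the pathway was described with 11 lists of 137 gene symbols, of which 132 were tested and 122 were not members. Sqor and Sqrdl were listed as separate symbols. Among these 122, limma passed 0 at an adjusted p under 0.05 (the lowest was 0.426), and 6, or 4.92%, were under the unadjusted threshold, 3 higher and 3 lower in MN. That share compares with 6.99% over all genes. A lower mean in MN was found for 68 of the 122 (55.7%), and their median was -0.03. List medians ran from -0.11 to 0.10.

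In the methionine cycle, 8 of 12 genes were lower and 4 higher in MN, 0 passed, and the median was -0.08. Mtr, the folate-dependent methionine synthase that acts beside Bhmt on homocysteine, gave 2.54 and 2.65 in control and 2.36 and 2.09 in MN (-0.22 ± 0.15), but its second probe gave 0.12. Ahcy, which splits S-adenosylhomocysteine, gave 3.05 and 3.15 in control and 3.08 and 3.21 in MN (0.02 ± 0.14). The 3 Ahcy probes ran from -0.22 to 0.02. Mat1a, the liver form of methionine adenosyltransferase, differed by -1.13 ± 0.55, with a difference of -0.05 on slide 1 and -2.20 on slide 2, and was well above background on 3 arrays.

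In the choline and betaine oxidation chain, 7 of 8 genes were lower in MN, 6 of these being members, and 0 passed (median -0.06). The remaining genes of the chain were Aldh7a1, the dehydrogenase that finishes betaine synthesis (0.04), and Pipox, the peroxisomal sarcosine oxidase (-0.01). A second Aldh7a1 probe gave -0.36. Of the 14 choline supply genes, 7 were higher and 7 lower, with 0 passed and a median of 0.00. Pcyt1a was at 0.21, and Slc22a2, an organic cation transporter of the proximal tubule, at -0.15. Slc5a7, 1 of the 3 lower list genes under the unadjusted threshold, was at -1.34, and at -0.47 after normexp correction. It was well above background on 2 arrays, so it entered the test through the control arrays.

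The folate cycle had 6 of 19 genes higher and 13 lower, 0 passed, and a median of -0.07. Mthfd1l, the mitochondrial formyltetrahydrofolate synthetase, gave 0.649 and 0.455 in control and 1.08 and 0.858 in MN. Its MN arrays were above both control arrays, with a difference of 0.83 and a second probe at 1.06 (limma adjusted p = 0.615). Glycine and serine metabolism had 11 of 17 higher and 6 lower, 0 passed, and a median of 0.03. The serine synthesis enzymes Phgdh and Psph were at 0.29 and 0.25, while Amt and Gcsh were at -0.30 and -0.25.

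In transsulfuration, cysteine and sulfide metabolism 4 of 11 tested genes were higher and 7 lower, 0 passed, and the median was -0.10. Ethe1, the mitochondrial persulfide dioxygenase, gave 22.6 and 22.1 in control and 15.9 and 17.1 in MN, with the groups apart and a difference of -0.44 (limma adjusted p = 0.630). Glutathione synthesis had 3 of 9 tested genes higher and 6 lower, 0 passed, and a median of -0.10. Its widest differences lay in opposite directions: Chac1, which degrades glutathione, was at 0.68, and Ggct, the gamma-glutamylcyclotransferase, at -0.49. Gclc, the catalytic subunit of the first synthetic enzyme, was at -0.35.

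The small molecule methyltransferases had 6 of 10 tested genes higher and 4 lower, 0 passed, and a median of 0.01. Inmt, the indolethylamine N-methyltransferase, gave 8.40 and 7.70 in control and 13.2 and 13.4 in MN, a difference of 0.73 that had the lowest adjusted p among the list genes that are not members (limma, 0.426). Methionine salvage and polyamine genes were higher in 4 of 16 tested and lower in 12, with 0 passed and a median of -0.07; Odc1, which commits ornithine to polyamines, was at -0.30 with overlapping groups.

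Betaine and osmolyte transport had 6 of 10 genes higher and 4 lower, 0 passed, and the highest list median, 0.10. Slc6a12, the betaine transporter of the kidney, gave 0.660 and 0.697 in control and 0.701 and 0.776 in MN (0.12 ± 0.15). The taurine transporter Slc6a6 was at 0.40 and Akr1b3, the aldose reductase that makes sorbitol, at 0.29. Cobalamin and cofactor supply had 5 of 13 genes higher and 8 lower, 0 passed, and the lowest list median, -0.11; Etfdh, which takes electrons that Dmgdh and Sardh hand to the electron transfer flavoprotein, was at -0.28.

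**Figure D5:**
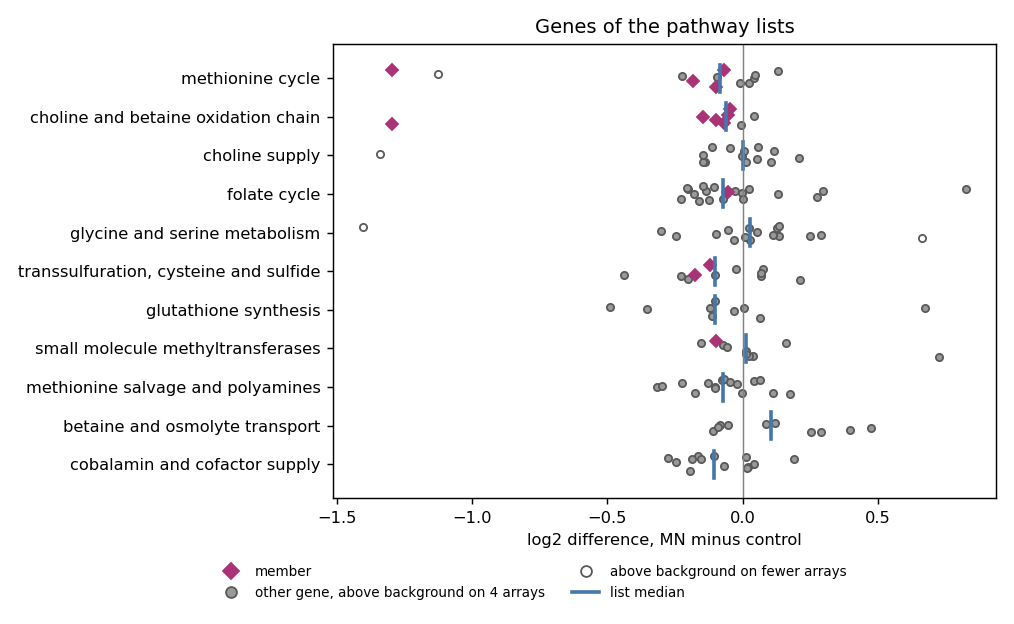
Log2 difference, MN minus control (horizontal axis), of each tested gene in the 11 pathway lists (rows; a gene may stand in several), with members as purple diamonds, other genes as grey circles (open where well above background on fewer than 4 arrays) and list medians as blue bars. Bhmt stands at -1.30 in the methionine cycle and the oxidation chain, while list medians lie between -0.11 and 0.10.

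In whole kidney, fewer cells of a type and less RNA per cell cannot be told apart. Proximal tubule markers were well above background on all 4 arrays for 17 of 18 genes, with a median difference of -0.04. Of these 18 genes, 0 passed and 1 was under the unadjusted threshold. This was Slc7a13, lower in MN and well above background on 2 arrays, so it entered the test through the control arrays. The summed scaled signal of the list was 1455 and 2511 in control and 1571 and 2119 in MN. Of the 14 liver markers 12 were tested, of which 10 were higher in MN, with 0 passed, 4 under the unadjusted threshold and a median of 0.32; their sum was 29.5 and 30.1 in control and 43.8 and 47.7 in MN, Ahsg was well above background on 3 arrays, and Apoa1 and Cyp3a11 did not pass the filter. Podocyte markers had a median of 0.62, with 6 of 8 higher, 0 passed and 5 under the unadjusted threshold. Their sums were 35.9 and 32.9 in control and 72.4 and 68.2 in MN. Adipose markers had a median of 3.02, with 6 of 8 higher, 2 passed and 6 under the unadjusted threshold. Their sums were 20.2 and 17.9 in control and 23.4 and 23.0 in MN. Most of each sum was Fabp4, at 19.9 and 17.5 in control and 18.1 and 16.8 in MN. The adipose genes that passed were Adipoq, well above background on 2 arrays, and Cfd, on 3, so both entered the test through the MN arrays; 5 of the 8 were well above background on every array.

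Adrenal markers had a median of -0.38, with 5 of 8 tested, 4 of these lower, 0 passed and 2 under the unadjusted threshold. These 2 were lower in MN, and 1 of them, Hsd3b1, was well above background on 2 arrays. Hsd3b1 thus entered the test through the control arrays. The sums of the adrenal markers were 1.12 and 1.19 in control and 0.952 and 0.787 in MN. Cyp11a1, Cyp11b2 and Mc2r did not pass the filter. Erythroid markers had a median of 0.44, with 6 of 7 tested higher, 0 passed, 3 higher and 1 lower under the unadjusted threshold, and sums of 318 and 350 in control and 356 and 376 in MN. Endothelial markers (4 of 8 higher, 0 passed, 2 under the unadjusted threshold) had a median of -0.01 and sums of 34.5 and 40.5 against 37.9 and 39.3. Leukocyte markers (6 of 8 lower, 0 passed at either threshold) had a median of -0.11 and sums of 26.7 and 28.5 against 26.1 and 29.4. Markers of the loop, distal tubule and collecting duct (8 of 15 tested higher, 0 passed at either threshold) had a median of 0.01 and sums of 463 and 497 against 471 and 489. The part of any of these 9 lists in the difference of Bhmt was not tested.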

How the data were processed

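Kidney RNA (0.2 µg labelled with Cy3, 0.6 µg of labelled RNA fragmented) was hybridized to Agilent arrays of 62976 spots, per the labels' protocols. The deposited scanner files give each spot's intensity, unlogged; per the file headers, the software was Agilent Feature Extraction 10.5.1.1 and the probes were placed on mm9. Trends across each array had been removed there, with surrogate values for the dimmest spots, and no scaling joined the arrays. The deposited value table holds log2 values, made in a way not given in the sources used here. A comparison with the scanner values showed that it is centred on the mean of the control arrays, and its columns for replicates 1 and 2 are exchanged in both groups (r = 1 with the other replicate's array over 55663 probes). It is not known which order is right. Group means are the same in either order, but values by array are not, and these were taken from the scanner files. Its column medians were 0.03 and -0.03 for control and -0.03 and -0.04 for MN.

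Control spots and spots marked as outliers were left out, spots of a probe were averaged, and each array's log2 processed signal was set relative to its 75th percentile over non-control spots. A probe entered if both arrays of either group had it well above background, and the brightest probe on average stood for its gene. Genes were named by accession (28026 probes), symbol (3418) or synonym (295) in a RefSeq table of GRCm38.p6, otherwise from the file (23942). Slides carried 2 annotation versions. limma 3.58.1 in R 4.3.3 (lmFit, eBayes, two-sided, Benjamini-Hochberg, threshold 0.05, prior df 2.04, residual df 2) was tested on simulated data. The simulated noise was independent between arrays, unlike that of same-numbered arrays here, so nothing is read from that test. Tables and figures used pandas 2.3.3, numpy 2.4.6 and matplotlib 3.10.9 in Python 3.11.15.

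The members and lists were chosen with earlier results of these data known. Named genes are all members with all probes, up to 4 genes per pathway list with the widest difference among those well above background on all 4 arrays, the 5 genes most like Bhmt, and the neighbours on the chromosome; some of these are left unnamed. Mat1a, Ahcy, Slc6a12, Slc5a7 and the marker genes given were added after their values were seen. Slides were read from the file headers and coincide with replicate numbers. Same-numbered arrays deviated together (correlation of 0.63 across genes).

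Alternatives were normexp correction (offset 50), quantile or median scaling, the deposited table, no filter or one over all 4 arrays, the mean of a gene's probes, outlier spots kept, the slide as a replicate block, another variance model, a threshold of 0.1 and each array left out.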

Additional observations from a re-analysis of the deposited data

How the results depend on the processing

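The number of genes past the limma threshold, 5 in all, was 15 with normexp correction, 20 with quantile normalization, 11 with median scaling, 16 with trend and robust variance, 1 when genes had to be well above background on all 4 arrays and 23 at an adjusted p under 0.1. It was 0 without the filter on dim probes (unadjusted p under 0.05: 786 higher, 1020 lower) and 0 in each fit that left out 1 array (459 to 874 higher and 485 to 1000 lower at that unadjusted p), where the lone array is assumed to vary like the other group. With the slide as a replicate block, a paired fit, it was 0 (lowest adjusted p 0.0639; unadjusted p under 0.05: 1571 higher, 2300 lower). The causes were not tested. In each of the 14 alternatives 0 members and 0 pathway genes passed. The median of the members ranged from -0.13 to -0.09, and 8 to 10 members had a lower mean in MN. That of all genes ranged from -0.10 to -0.02. The log2 difference of Bhmt ranged from -1.32 to -0.98: the mean of its 4 probes gave -0.98, and normexp correction gave -1.09, where the probe near the transcript's end had the highest mean. With 1 array left out, Sardh reached 0.02, Gnmt 0.06, Shmt1 0.08 and Chdh 0.14. Having 2 arrays per group limits all of these values.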
